A study of Mus musculus with 4 samples.

Results

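The clustered histone genes were followed as the Gata4 ChIP-seq peaks that lay beside them. A peak was taken as a histone-gene peak when the deposited list named, within 5 kb of it, a gene with a symbol beginning Hist1h, Hist2h, Hist3h or Hist4h, and each peak was counted once. This gave 18 of 20410 peaks in the WT list and 25 of 22733 in the DKO list, or 43 of 43143 in all. They are 0.0882% of the WT list (95% Wilson interval 0.0558 to 0.139%) and 0.110% of the DKO list (0.0745 to 0.162%), and these intervals overlap.

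The replication-dependent histone genes encode the linker histone H1 and the core histones H2A, H2B, H3 and H4, which package newly made DNA, and they are transcribed mainly in S phase. Most lack introns, end in an mRNA stem-loop instead of a poly(A) tail, and lie in dense clusters in which an H2A and an H2B gene often start back to back from a shared promoter. Their promoters are known for CCAAT boxes, TATA boxes and, in H2B genes, an octamer bound by Oct factors. Gata4 is a zinc-finger transcription factor that binds the sequence GATA with A or T before it.

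The study asked where Gata4 binds in mesoderm cells with and without the de novo DNA methyltransferases Dnmt3a and Dnmt3b. All 4 libraries came from lines of J1 ES cells of 129 background, either wild type (WT) or Dnmt3a-/-Dnmt3b-/- (DKO), and were made with a mixture of 3 Gata4 antibodies. In the WT Flk1(+) and DKO Flk1(+) libraries, ES cells carrying the fusion Gata4GR (Gata4 joined to a glucocorticoid receptor domain that binds Dex, under the constitutive CAG promoter) were grown on OP9 stroma to day 4.5, given 100 nM Dex for 3 hours to activate the fusion, and sorted magnetically for Flk1, a mesoderm surface marker. For each genotype, undifferentiated ES cells that received no Dex gave the background library (WT ES or DKO ES). By the paper these ES cells carried Gata4GR as well. The Flk1(+) libraries came from 1 clone each, named J1G4.2 for WT and 16G4.3 for DKO in the labels, so clone and genotype cannot be told apart, and the sorted cells and their ES controls differ in cell type as well as in Dex. Each condition has 1 library, so no difference between the lists has a replicate check and none was tested. The Wilson intervals cover counting error within a list only. The deposited lists hold binding sites and no reads or expression values, so library depth, the cell type markers and the loss of Dnmt3a and Dnmt3b could not be checked in them. By the study's methods, more reads were mapped from the DKO Flk1(+) than from the WT Flk1(+) library, and the part of this in the differences between the lists was not tested.

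The height of a peak is the value of the authors' smoothed read profile at that position, and the ES height is the value of the ES profile there. Heights of 5 or more and an enrichment over ES of 3 or more were required for a peak to be listed, where the enrichment is the height divided by the ES height, with an ES height below 1 taken as 1. How heights were scaled between libraries is not given in the sources used here, so each DKO to WT ratio is read beside the same ratio over all shared peaks. Sequence in mm9 was described over a window reaching 250 bases to either side of each peak.

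The sequences at some of the histone-gene peaks show the promoters that those peaks lay on or beside. 5 H2A and H2B pairs that start back to back had a peak in both lists, and the whole stretch between each pair of starts is printed here on the plus strand of mm9. Capitals mark the CCAAT box, the TATA box TATAAA, the octamer ATTTGCAT and the GATA motif (AGATAA or TGATAA), read on either strand.
Hist3h2bb-ps and Hist3h2a, chr11:58768015-58768186: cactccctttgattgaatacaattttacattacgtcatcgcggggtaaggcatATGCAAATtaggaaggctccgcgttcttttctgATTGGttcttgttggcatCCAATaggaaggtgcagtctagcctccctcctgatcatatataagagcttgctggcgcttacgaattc
Hist1h2an and Hist1h2bp, chr13:21879088-21879329: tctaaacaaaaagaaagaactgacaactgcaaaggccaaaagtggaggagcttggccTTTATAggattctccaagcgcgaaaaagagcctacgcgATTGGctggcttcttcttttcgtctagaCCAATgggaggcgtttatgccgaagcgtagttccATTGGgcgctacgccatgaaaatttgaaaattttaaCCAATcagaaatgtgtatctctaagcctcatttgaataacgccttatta
Hist1h2ah and Hist1h2bk, chr13:22127513-22127689: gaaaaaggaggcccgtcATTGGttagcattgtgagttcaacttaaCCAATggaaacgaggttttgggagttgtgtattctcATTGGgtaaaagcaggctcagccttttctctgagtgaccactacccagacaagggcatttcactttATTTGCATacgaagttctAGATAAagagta
Hist1h2ag and Hist1h2bj, chr13:22134819-22135082: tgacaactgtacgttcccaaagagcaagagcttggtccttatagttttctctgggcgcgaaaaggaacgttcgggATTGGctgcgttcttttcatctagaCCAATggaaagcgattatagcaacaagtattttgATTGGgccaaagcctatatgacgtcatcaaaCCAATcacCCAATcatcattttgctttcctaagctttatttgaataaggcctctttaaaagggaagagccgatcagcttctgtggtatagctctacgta
Hist1h2bf and Hist1h2ad, chr13:23666066-23666249: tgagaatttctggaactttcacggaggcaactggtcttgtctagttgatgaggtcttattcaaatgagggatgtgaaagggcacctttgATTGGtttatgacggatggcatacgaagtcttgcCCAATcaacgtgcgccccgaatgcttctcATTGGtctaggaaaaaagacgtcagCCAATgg
Between 2 and 5 CCAAT boxes stood in each of these stretches. The octamer stood in the stretch beside Hist3h2a and in that beside Hist1h2bk, and AGATAA stood in the latter alone, 6 bases inside its Hist1h2bk end.

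The next 4 sequences are shown because they carry the tallest DKO peak, a tall DKO peak with no WT counterpart, and the 2 shared peaks that were at least 1.5 times as high in WT. The first 3 run from 300 to 11 bases upstream of the annotated start, in the direction of the gene, with the same letters in capitals.
Hist1h3g, plus strand, chr13:23626991-23627280: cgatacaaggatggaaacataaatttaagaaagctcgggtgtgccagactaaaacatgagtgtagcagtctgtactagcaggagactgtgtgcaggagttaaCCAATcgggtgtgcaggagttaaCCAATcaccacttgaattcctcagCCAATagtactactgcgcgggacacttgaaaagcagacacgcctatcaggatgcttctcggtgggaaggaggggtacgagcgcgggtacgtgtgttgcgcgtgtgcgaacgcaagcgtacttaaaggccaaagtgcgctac
Hist1h4a, minus strand, chr13:23853110-23853399: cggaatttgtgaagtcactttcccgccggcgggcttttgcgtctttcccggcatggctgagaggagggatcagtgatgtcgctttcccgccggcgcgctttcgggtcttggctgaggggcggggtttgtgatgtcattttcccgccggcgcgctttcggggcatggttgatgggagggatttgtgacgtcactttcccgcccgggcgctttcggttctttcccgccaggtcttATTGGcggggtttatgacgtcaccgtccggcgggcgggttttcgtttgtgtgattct
Hist1h3a, minus strand, chr13:23854266-23854555: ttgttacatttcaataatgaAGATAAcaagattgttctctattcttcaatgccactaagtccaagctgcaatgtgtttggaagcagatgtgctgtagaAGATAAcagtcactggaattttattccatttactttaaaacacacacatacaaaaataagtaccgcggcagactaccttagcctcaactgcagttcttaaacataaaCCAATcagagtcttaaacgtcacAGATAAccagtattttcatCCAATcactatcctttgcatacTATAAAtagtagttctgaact
Hist1h2bn, plus strand, 121 bases centred on the WT peak downstream of the gene, chr13:21846669-21846789: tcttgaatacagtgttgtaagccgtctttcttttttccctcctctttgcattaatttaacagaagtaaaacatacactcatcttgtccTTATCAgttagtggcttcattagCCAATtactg
The Hist1h3g stretch held 3 CCAAT boxes and 17 CpGs, and the Hist1h4a stretch held 1 CCAAT box and 31 CpGs, with no AGATAA or TGATAA in either. The Hist1h3a stretch held 3 AGATAA, 2 CCAAT and 1 TATAAA with only 3 CpGs. The Hist1h2bn stretch held 1 TGATAA and 1 CpG.

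The peaks named genes of all 4 histone groups. The main cluster on chromosome 13, whose starts from Hist1h2bl to Hist1h2aa span 2218 kb, held 15 WT and 19 DKO histone-gene peaks, and the cluster on chromosome 3 (Hist2h genes) held 1 WT and 4 DKO. The Hist3h group on chromosome 11 had 1 peak in each list. Hist4h4 on chromosome 6 was named by 1 peak in each list, 3819 bp (WT) and 4228 bp (DKO) from its start. Those peaks lay nearer to the start of the variant gene H2afj. Where windows of either list overlapped, the 43 peaks merged into 27 regions, of which 11 were in both lists, 5 in the WT list alone and 11 in the DKO list alone. Of all peaks, 45.6% in WT and 45.1% in DKO had a window that overlapped one of the other list. Of peaks within 1 kb of any protein-coding start, 74.0% in WT and 46.0% in DKO did.

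**Figure D1:**
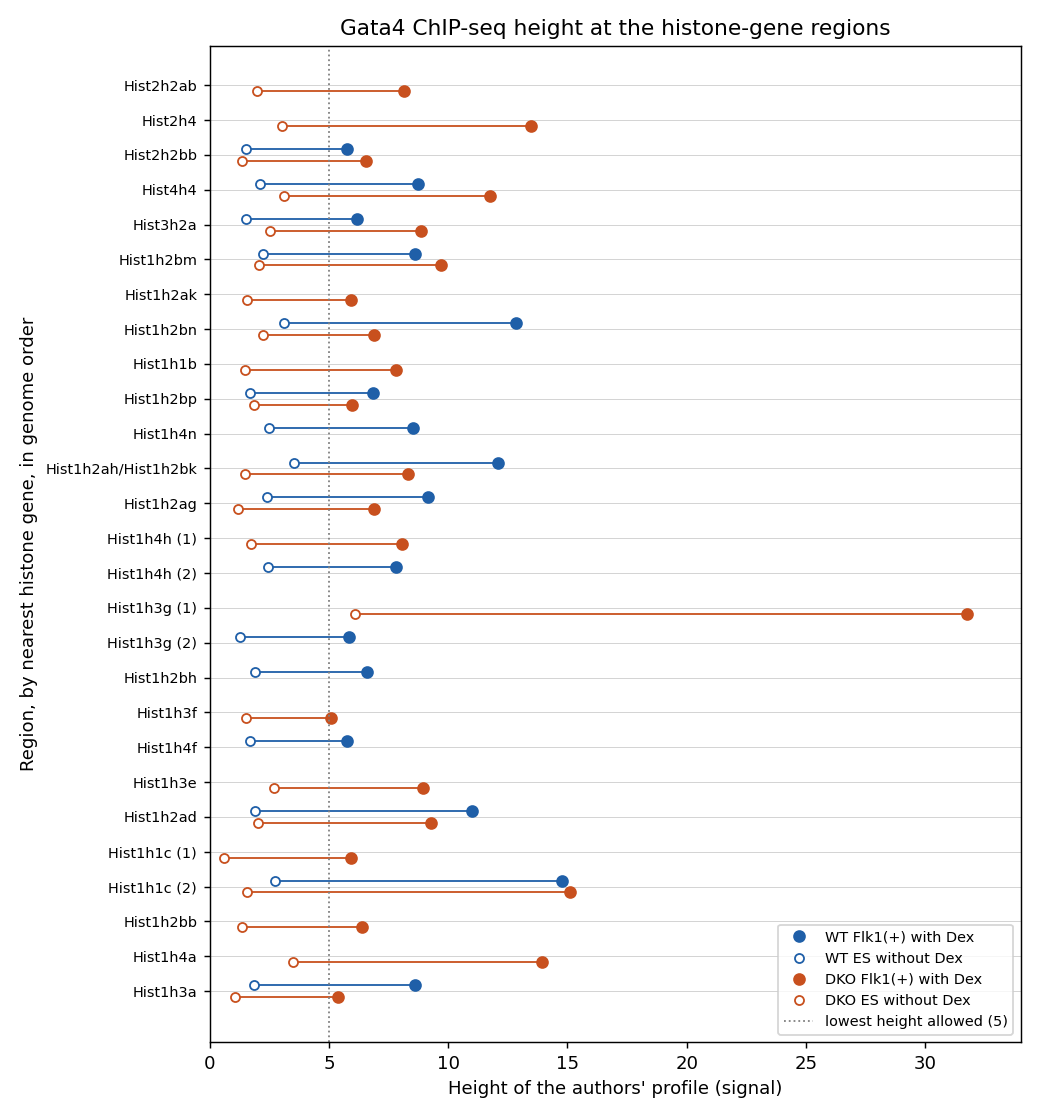
Height (signal) of the tallest peak of each list in the 27 regions, filled for Flk1(+) with Dex and open for the ES library at the same position, in genome order by nearest histone gene, with WT in blue and DKO in orange. The DKO peak at Hist1h3g stands at 31.8 and every other peak at 15.1 or below, and the open circles lie between 0.597 and 6.08.

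Most of the peaks lay near a histone start. In the WT list 15 of 18 and in the DKO list 22 of 25 lay within 1 kb of an annotated histone start, with a median distance to the start of 135 bp and 165 bp. Within 500 bp the counts were 11 and 19. The peaks were chosen for lying within 5 kb of a histone gene, so nearness to a histone start is partly set by that choice. Of all peaks, 25.0% in WT and 45.4% in DKO lay within 1 kb of any protein-coding start. Histone genes are short, so 1 kb can reach past their ends. The WT peaks at Hist1h2bn (737 bp past the start) and Hist1h4h (719 bp) lay beyond the gene. In WT, 11 lay upstream of the nearest start and 7 downstream, and in DKO 12 upstream and 13 downstream. The DKO peaks lay inside an annotated histone gene in 12 of 25 cases, against 4 of 18 in WT. Of these, 3 DKO and 2 WT peaks were overlapping ones in Hist1h1c, and 2 DKO peaks lay in Hist2h2bb. No share over all peaks stands beside the counts by side of the start or inside genes, and the differences were not tested. A single peak often stood beside several genes: 15 WT and 19 DKO peaks named more than 1 histone gene, up to 5.

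**Figure D2:**
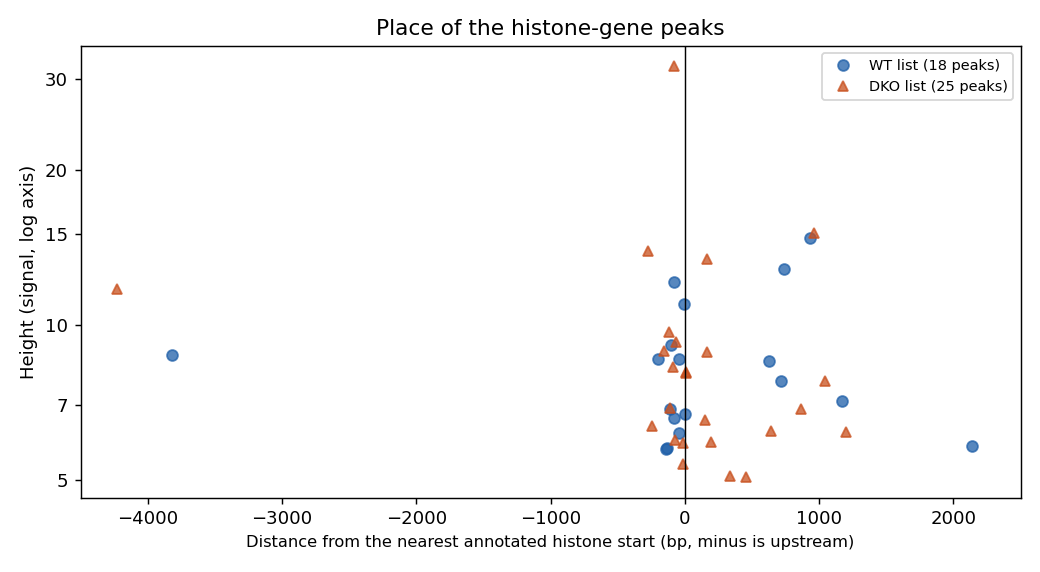
Distance from each histone-gene peak to the nearest annotated histone start (bp, minus is upstream) against its height (signal, log axis), for 18 WT and 25 DKO peaks. Most lie within 1000 bp of the start on either side, and the leftmost pair are the peaks of the 2 lists named for Hist4h4.

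Of 70 annotated genes with these symbols, 35 were named beside a WT peak and 42 beside a DKO peak. Both lists named 32 of them, 3 were named in WT alone, 10 in DKO alone and 25 in neither. Among the 67 that code for protein the shares were 52.2% in WT, where 36.4% of all 22238 protein-coding genes were named, and 62.7% in DKO, where 45.5% of all were named. Histone genes lie so close together that 1 peak names several, and counting only the nearest start of each peak left 16 genes in WT and 21 in DKO. Each list also used the name Hist3h2bb, which the annotation gives as the pseudogene Hist3h2bb-ps.

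By class, the naming was spread over all 5 histones. Of the 6 H1 genes, WT named 3 and DKO 4. Of 20 H2A genes, WT named 9 and DKO 11, and of 19 H2B genes, WT named 9 and DKO 11. Of 12 H3 genes, WT named 7 and DKO 9, and of 13 H4 genes each list named 7, with 5 the same. The genes named in WT alone were Hist1h2ao, Hist1h4m and Hist1h4f. Those named in DKO alone were Hist1h1b, Hist1h3e, Hist1h3c, Hist1h2bb, Hist1h2ab, Hist1h4b, Hist2h2ab, Hist2h2ac, Hist2h2be and Hist2h4.

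The histone-gene peaks were of middling height. In WT the median height was 8.16 (range 5.75 to 14.8), beside 7.74 over all WT peaks and 8.50 over the 5099 WT promoter peaks, those within 1 kb of any protein-coding start. In DKO the median was 7.79 (5.07 to 31.8), beside 6.91 over all DKO peaks and 7.59 over 10312 promoter peaks. Ranked by the authors' score, 7 of 18 WT peaks and 16 of 25 DKO peaks stood in the better 50% of their list, and 0 and 2 in the best 10%. Of the promoter peaks, 1976 of 5099 in WT and 4841 of 10312 in DKO stood in the better 50%, and 141 and 679 in the best 10%.

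Median ES background at the histone-gene peaks lay between that of all peaks and that of promoter peaks. The median ES height was 1.90 in WT (0.789 to 3.52), beside 1.68 over all peaks and 2.17 over promoter peaks. In DKO it was 1.74 (0.597 to 6.08), beside 1.58 and 1.87. An ES height below 1 was found at 1 WT peak (5.56%) and 1 DKO peak (4%), both at Hist1h1c, where all peaks gave 16.2% and 18.8%. The median enrichment over ES was 3.93 in WT and 4.64 in DKO, where all peaks gave 4.53 and 4.37 and promoter peaks 3.80 and 3.98.

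Hist1h1c encodes a linker histone, which binds DNA where it enters and leaves the nucleosome, and it had the most peaks of any histone gene. Its tallest peak lay in annotated untranslated sequence of the gene, 931 bp from the start in WT and 959 bp in DKO. There the height was 14.8 in WT Flk1(+) and 2.75 in WT ES, and 15.1 in DKO Flk1(+) and 1.56 in DKO ES. The Flk1(+) heights were nearly equal while the ES height was lower in DKO, so the enrichment was 5.38 in WT and 9.65 in DKO, the highest of any histone-gene peak. This DKO peak ranked 322 of 22733 and held no AGATAA or TGATAA.

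A smaller peak in the same untranslated sequence, 1172 bp from the start, was 7.13 high in WT with an ES height of 0.789, and its DKO counterpart was 6.21 with an ES height of 1.13. These peaks overlap the tallest one and share its DNA. DKO had a further peak in the coding sequence (height 6.24, ES 2.07) that overlapped the tallest WT peak, and one 15 bp upstream of the start (height 5.91, ES 0.597) with no WT counterpart. Of the other H1 genes, Hist1h1b had a DKO peak 1045 bp past its start, with a height of 7.79, an ES height of 1.47, 19 CpGs and 2 AGATAA or TGATAA. The nearest WT peak was 7769 bp away. Hist1h1a and Hist1h1d were named by peaks nearest to other histone genes, and Hist1h1e and the testis gene Hist1h1t by no peak.

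H2A and H2B form the dimers on either face of the nucleosome. Most of the shared peaks lay nearest to a start of these genes, which are also 20 (H2A) and 19 (H2B) of the 70 annotated histone genes. Of 13 pairs of histone genes that start back to back within 500 bp of each other, each an H2A with an H2B gene, 5 had a WT peak and 6 a DKO peak between the starts or within 250 bp of them. The same 5 pairs had a peak in both lists, 1 pair (Hist1h2ak and Hist1h2bn) in DKO alone, and 7 in neither. The starts in these pairs stood 167 to 305 bp apart.

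At the stretch between Hist1h2ah and Hist1h2bk the peak was 12.1 high in WT Flk1(+) and 3.52 in WT ES, and 8.30 in DKO Flk1(+) and 1.45 in DKO ES. The positions in the 2 lists were 10 bp apart. Both heights were lower in DKO, and the enrichment was 3.44 in WT and 5.71 in DKO.

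Between Hist1h2bf and Hist1h2ad the peak was 11 high in WT (ES 1.90) and 9.28 in DKO (ES 2.01). Between Hist1h2ag and Hist1h2bj it was 9.15 in WT (ES 2.41) and 6.89 in DKO (ES 1.20). At Hist1h2an and Hist1h2bp the WT list had overlapping peaks of 6.86 (ES 1.68) and 6.74 (ES 1.8), and both met the same DKO peak of 5.97 (ES 1.86). All of these were lower in DKO, by less than 1.5 times. Hist1h2bm, which starts 202 bp from its WT peak and 121 bp from its DKO peak, had 8.61 in WT (ES 2.24) and 9.69 in DKO (ES 2.04).

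The Hist3h2a and Hist3h2bb-ps peak moved the other way. Its height was 6.16 in WT Flk1(+) and 1.53 in WT ES, and 8.87 in DKO Flk1(+) and 2.51 in DKO ES. It had the highest DKO to WT ratio of the shared histone-gene peaks, 1.44, and its ES height was 1.64 times that of WT. The WT position lay between the starts and the DKO position 210 bp away, within the Hist3h2a coding sequence.

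Hist1h2bn had the lowest DKO to WT ratio. Its peak downstream of the gene was 12.8 high in WT Flk1(+) and 3.10 in WT ES, and 6.88 in DKO Flk1(+) and 2.24 in DKO ES, a ratio of 0.536. The windows there hold 5 CpGs in WT and 7 in DKO, among the fewest of the histone-gene peaks. A separate DKO peak of 5.93 (ES 1.55) stood in the coding sequence of the neighbouring Hist1h2ak, 192 bp past its start, where 52.6% of the window occurs elsewhere in the genome. The WT peak 83 bp upstream of the H2B gene Hist1h2bh (6.61, ES 1.90) had no DKO counterpart, although the DKO peak at Hist1h3f, 948 bp away, also named this gene. Hist1h2bb, another H2B gene, was named in DKO alone (6.36, ES 1.37).

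The Hist2h genes on chromosome 3 had 1 WT and 4 DKO peaks. At Hist2h2bb, an H2B gene, the WT peak 130 bp upstream was 5.77 high (ES 1.53), and the DKO peak 147 bp downstream was 6.53 (ES 1.36). A further DKO peak 457 bp downstream was 5.07 high (ES 1.00), the lowest of the histone-gene peaks. At Hist2h2ab, an H2A gene, the DKO peak 9 bp past the start was 8.13 (ES 1.98), and the nearest WT peak was 22331 bp away. The copies Hist2h3c2, Hist2h2aa2, Hist2h2aa1 and Hist2h3c1 were named by neither list, and 93.2% of the sequence around each start occurs elsewhere in the genome.

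H3 and H4 form the tetramer at the core of the nucleosome. The tallest histone-gene peak was in this group, at Hist1h3g in the DKO list (chr13:23626958-23627458). It lay 83 bp upstream of the start and was 31.8 high in DKO Flk1(+) and 6.08 in DKO ES. It ranked 905 of 22733, with an enrichment of 5.23 and 37 CpGs. The lists hold no WT height for a position without a WT peak, and the nearest WT peak was 2219 bp away. That peak, 2136 bp downstream of the start, was 5.83 high (ES 1.27) with 3 CpGs and 3 AGATAA or TGATAA. The height and the ES height of the DKO peak were both the highest of the histone-gene peaks.

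Hist1h4a had a DKO peak of 13.9 (ES 3.49), 277 bp upstream of its start, with 48 CpGs and no WT counterpart. The nearest WT peak, 923 bp away, belonged to the neighbouring Hist1h3a, where the height was 8.59 in WT Flk1(+) and 1.86 in WT ES, and 5.38 in DKO Flk1(+) and 1.05 in DKO ES. The Hist1h3a ratio, 0.626, was the second lowest of the shared peaks, and its enrichment was 4.63 in WT and 5.15 in DKO. At Hist1h3a the WT height was thus the higher, and at Hist1h4a only the DKO list had a peak.

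At Hist2h4, an H4 gene, the DKO peak was 13.5 high (ES 3.03) in the coding sequence 166 bp past the start, with 33 CpGs, and the nearest WT peak was 6446 bp away. Hist1h3e had a DKO peak of 8.92 (ES 2.68), and Hist1h3f had one of 5.09 (ES 1.54), both without a WT counterpart. Hist1h4h had a peak in each list that did not overlap. The WT peak, 719 bp past the start, was 7.80 high (ES 2.43), and the DKO peak, 9 bp past it, was 8.07 (ES 1.74). Hist1h4f had a peak in WT alone, 5.75 high (ES 1.70), with 2 AGATAA or TGATAA.

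The tallest peak found in WT alone, 8.53 high (ES 2.47), stood in a stretch of copied genes. The list named Hist1h4m and Hist1h2ao beside it and the annotation put Hist1h4n nearest, 627 bp away, and 87.0% of its window occurs elsewhere in the genome. Which copy the reads came from was not tested. The peaks named for Hist4h4, an H4 gene, lay 3819 bp (WT) and 4228 bp (DKO) upstream of it, the farthest from their gene of all. They stood 50 bp and 359 bp from the start of the variant gene H2afj, with a height of 8.75 (ES 2.12) in WT and 11.7 (ES 3.09) in DKO.

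A peak of one list was taken as shared when its window overlapped one of the other. In WT, 13 of 18 histone-gene peaks were shared (72.2%, Wilson interval 49.1 to 87.5%), where 45.6% of all WT peaks and 74.0% of WT promoter peaks were. In DKO, 13 of 25 were shared (52.0%, 33.5 to 70.0%), where 45.1% of all DKO peaks and 46.0% of promoter peaks were. Both shares were thus near those of promoter peaks. The 5 WT peaks without a counterpart were 5.75 to 8.53 high (median 6.61), and the 12 DKO peaks without one were 5.07 to 31.8 high (median 7.93).

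At the 13 shared WT peaks the median DKO to WT height ratio was 0.871 (0.536 to 1.44), beside 0.823 over all 9305 shared peaks and 0.954 over 3773 promoter ones. The DKO height was the higher at 5 of 13 (38.5%), where all shared peaks gave 30.7% and promoter ones 43.6%. At least 1.5 times the WT height was reached at 0 of the 13, against a background of 6.42%, and WT was at least 1.5 times DKO at 2, Hist1h2bn and Hist1h3a, against a background of 31.8%. Among the promoter ones these shares were 7.90% and 11.7%. The 2 of 13 higher in WT are 15.4%. The ES heights had a median DKO to WT ratio of 0.912, beside 0.708 over all shared peaks and 0.860 over promoter ones. The 10 shared peaks on chromosome 13 had a median height ratio of 0.858, beside 0.789 over all 370 shared peaks of that chromosome.

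Of the 5 shared peaks higher in DKO, 2 stood in the main cluster and 3 elsewhere. On chromosome 13 the DKO height was higher at 2 of 10 shared peaks (20%), Hist1h2bm (1.13) and Hist1h1c (1.02). All 370 shared peaks of that chromosome gave 27.8%. The 3 shared peaks elsewhere, at Hist3h2a (1.44), beside Hist4h4 but nearer to H2afj (1.34), and at Hist2h2bb (1.13), were all higher in DKO. Their positions in the 2 lists lay 210, 409 and 277 bp apart, against a median of 37.5 bp on chromosome 13. At Hist3h2a and beside Hist4h4 the ES height was also higher in DKO. The enrichment there was lower in DKO, 4.03 in WT and 3.54 in DKO, and 4.12 and 3.80. At Hist2h2bb it was higher in DKO, 3.77 and 4.79. With 1 library a genotype the split by place was not tested.

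**Figure D3:**
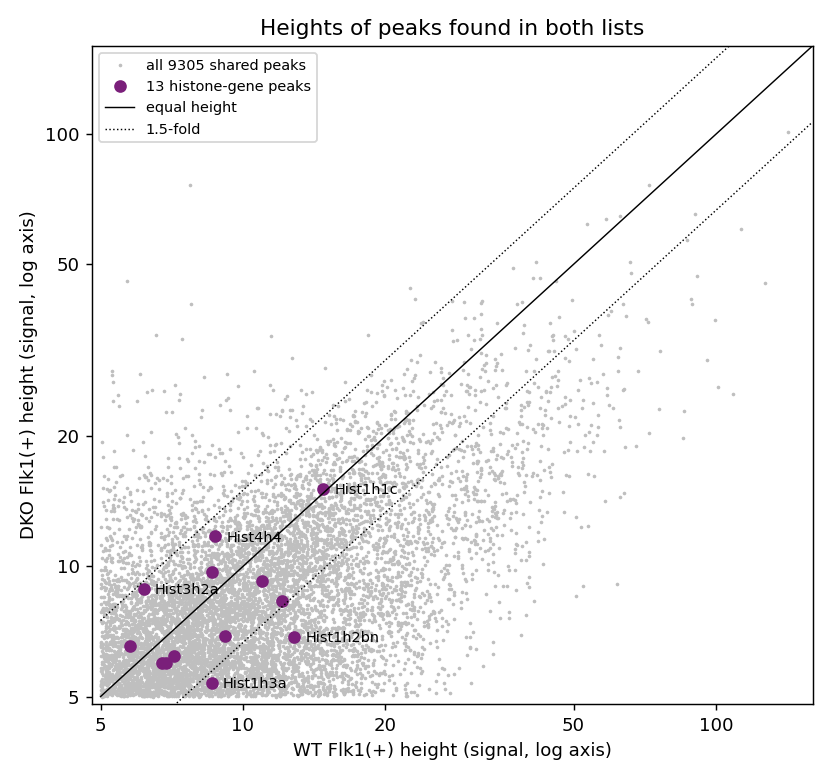
Height in WT Flk1(+) against height in DKO Flk1(+) (signal, log axes) for the 9305 shared peaks in grey and the 13 histone-gene peaks in purple, with lines at equal height and at 1.5-fold. The histone-gene peaks lie within the grey cloud, 5 above the line of equal height and 2, Hist1h2bn and Hist1h3a, below the lower 1.5-fold line.

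The DNA under the peaks was richer in CpGs than that of most peaks and poorer than that of most promoter peaks. The median number of CpGs in a window was 23.5 in WT (3 to 42), beside 8 over all WT peaks and 36 over promoter peaks. In DKO it was 31 (7 to 55), beside 21 and 38. The highest counts, 42 and 55, were of the peaks named for Hist4h4, which lay nearer to H2afj. Within 1 kb of a histone start the highest were 35 in WT and 48 in DKO. The WT peaks without a counterpart had 3 to 23 CpGs, and the DKO peaks without one had 19 to 48. These ranges rest on 5 WT and 12 DKO peaks. No value over all peaks without a counterpart stands beside them, and the difference was not tested. GC content had a median of 49.9% in WT and 53.1% in DKO, where promoter peaks had 61.7% and 62.7%.

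AGATAA or TGATAA stood in 8 of 18 WT windows (44.4%, Wilson interval 24.6 to 66.3%) and in 7 of 25 DKO windows (28.0%, 14.3 to 47.6%). All peaks held it more often, 61.9% in WT and 38.1% in DKO, and promoter peaks less often, 21.2% and 14.1%. Within 100 bases of the peak it stood in 5 WT and 3 DKO histone-gene windows. The WT windows with it lay at Hist3h2a, Hist1h2bm, Hist1h2bn, Hist1h2bk, Hist1h4h, Hist1h4f and Hist1h3a and downstream of Hist1h3g. The DKO windows with it lay at Hist3h2a, Hist1h2bm, Hist1h2bn, Hist1h2bk, Hist1h3a, Hist1h1b and Hist1h3e. None of the 3 tallest DKO peaks, at Hist1h3g, Hist1h1c and Hist1h4a, held it, which says only that these letters were not in those windows. With G also allowed as the last base, the Hist1h3g window held 1 match, and those at Hist1h1c and Hist1h4a still held none. A match is likewise only a description and not a site of binding.

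The promoter elements of histone genes were common in the same windows. CCAAT stood in 16 of 18 WT (88.9%) and 22 of 25 DKO windows (88.0%), where all peaks gave 48.7% and 44.2%. TATAAA stood in 8 WT (44.4%) and 10 DKO windows (40%), where all peaks gave 15.8% and 10.9%. The octamer ATTTGCAT stood in 4 of each list (22.2% and 16.0%), where all peaks gave 2.42% and 1.83%. The WT windows with the octamer lay at Hist3h2a, Hist1h2bm, Hist1h2bk and Hist2h2bb, and those of DKO at Hist1h2bm, Hist1h2bk, Hist1h2bb and Hist2h2bb, so each lay at an H2B gene or beside one. Overlapping windows share matches, so these counts are not of separate sites.

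**Figure D4:**
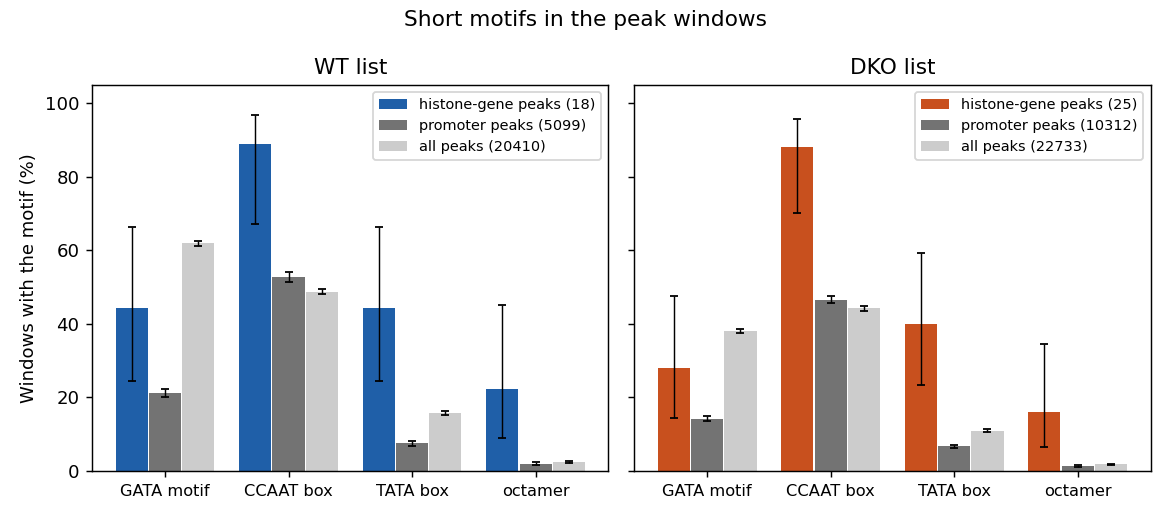
Share of windows (%) that hold the GATA motif, the CCAAT box, the TATA box and the octamer in histone-gene peaks, promoter peaks and all peaks of the WT and DKO lists, with 95% Wilson intervals. In both lists the CCAAT, TATA and octamer bars of the histone-gene peaks stand above the grey bars, and the GATA bar stands between those of promoter peaks and all peaks.

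Many histone genes have near-identical copies, and reads that fit several places are hard to assign. The authors required a minimum ratio of confident to repetitive mapping for a peak. At least one 32-base stretch that occurs more than once in mm9 was found in 11 of 18 WT windows (61.1%) and 20 of 25 DKO windows (80%), where all peaks gave 22.6% and 20.1%. Of the 25 histone genes named in neither list, 8 had such stretches over more than 50% of the sequence around the start, against 3 of the 45 named in either. Of the 4 genes at 100%, Hist1h2bq, Hist1h2ap and Hist1h2br were named in neither list, and Hist1h2ao was named in WT. The WT peak that named Hist1h2ao lay, by the annotation, 2006 bp from the start of Hist1h2ap and 2174 bp from that of Hist1h2br, and 21202 bp was the distance from the start of Hist1h2ao to its nearest WT peak. Whether repeated sequence bears on which genes the lists named was not tested.

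**Figure D5:**
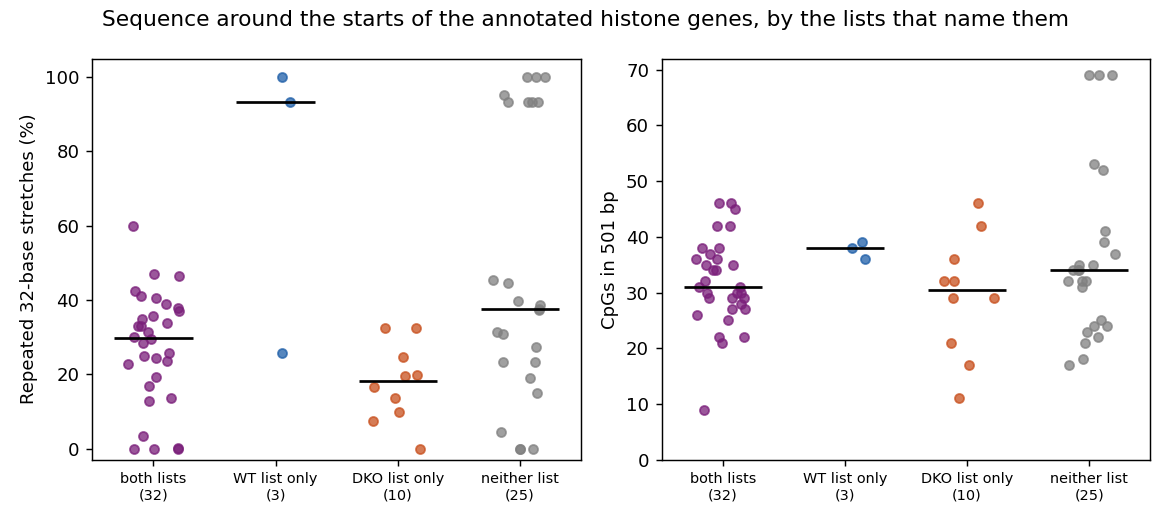
Share of 32-base stretches around each histone start that occur more than once in mm9 (%, left) and CpGs in the same stretch (right) for the 70 annotated genes, by the lists that name them, with a bar at the median. The genes above 90% on the left are, but for 2 named in WT alone, all among those named in neither list, and CpG medians run from 30.5 to 38.

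Genes that supply, process and carry histones were taken as a separate list of 35. Of these, 29 were named in WT, 28 in DKO and 26 in both, where 36.4% and 45.5% of all protein-coding genes were. A named peak can lie far from the annotated start, as at Casp8ap2 in WT (41527 bp) and at Cpsf3 (12098 bp in WT, 13863 bp in DKO). All 7 chaperone genes were named in both lists, and of 10 genes that control histone transcription, each list named 9. Of 7 genes for histone mRNA processing, WT named all and DKO 6, and of 11 replication-independent variants each list named 6.

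Several of the supply genes had taller peaks than nearly all of the clustered genes, taking the highest peak of each gene. Others were low in WT, such as Yy1 (5.19), Sympk (6.73) and Hira (6.85), under the WT histone-gene median of 8.16. The genes given next are among the taller ones. H2afx, the variant phosphorylated at DNA breaks, had a height of 31.7 in WT (ES 7.39) and 27.4 in DKO (ES 4.20). H2afv, an H2A.Z gene, had 22.2 in WT (ES 6.33) and 28.6 in DKO (ES 5.83), and the chaperone gene Asf1b had 23.3 in WT (ES 3.94) and 23.0 in DKO (ES 3.13). Npat, which encodes the S-phase coactivator of the histone clusters, had 14.4 in WT (ES 4.02) and 13.2 in DKO (ES 1.74). Hinfp, a factor of H4 promoters, had 18.8 in WT (ES 4.27) and 19.7 in DKO (ES 3.94). Slbp, which binds the histone mRNA stem-loop, had 13.6 in WT (ES 4.37) and 13.5 in DKO (ES 1.34). The Hat1 peak was 16.8 in WT (ES 3.22) and 13.9 in DKO (ES 2.14), in a gene for the acetyltransferase of new H4. Cpsf2, a subunit of the cleavage complex, had a WT peak of 21.4 (ES 5.82) and was named by no DKO peak.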

How the data were processed

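Gata4 ChIP-seq peak lists of WT and DKO Flk1(+) cells, each called against the ES library of its genotype, were used. The submitters' processing notes name CASAVA 1.8.1, cutadapt and mm9, and the paper's methods the DNAnexus tools. The aligner and the treatment of duplicate reads are not given in the sources used here. The deposited lists give, for each peak, a signal (the profile height in the Flk1(+) and the ES library), the ratio (fold) of these made by the authors, a rank used as score and the −log10 of the authors' q-value, which was not used here. Gene names and their distances are also the authors'. The lists carry no library name, and a list's genotype was taken from its number of peaks. The deposited sequence of every peak equalled mm9 at its position.

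Genes came from GENCODE vM1. Windows, motifs, CpGs, 32-base repeats and overlaps were counted with Python 3.11.15, NumPy 2.4.6, pandas 2.3.3, SciPy 1.17.1 and pysam 0.24.0, drawn with Matplotlib 3.10.9, and the steps were tested on simulated data. No test was made, since each condition has 1 library. The members and the supply list were chosen with earlier results of these data known. Values were given for the 5 tallest peaks of each list and of those without a counterpart, all peaks with AGATAA or TGATAA, all Hist2h, Hist3h and Hist4h peaks, the 3 highest and 3 lowest height ratios and the peaks nearest to and farthest from the 5 kb limit; other members named were chosen after their values were seen. Alternatives changed the distance, score, enrichment, overlap, window, motif and height scale, and 2 were added after the data were seen.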

Additional observations from a re-analysis of the deposited data

How the results depend on the processing

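The numbers of peaks and named genes, the shares with a counterpart and with AGATAA or TGATAA, the medians of height, ES height and CpGs and the DKO to WT height ratio were recomputed under other settings. The median ratio was 0.871 as reported. Its interval of 0.686 to 1.13 was taken from the order of the 13 peak ratios, and the Hist1h2bp ratios among them share a DKO peak. This interval reflects the spread among peaks of 1 library a genotype and does not measure a difference between genotypes. The median ratio was 0.858 with only mutual pairs within 100 bp. All shared peaks gave 0.823 and the height scaling is not known, so a ratio below 1 does not show lower heights in DKO. The number of histone-gene peaks fell to 7 in WT and 16 in DKO with the better 50% of each list by score, and to 3 and 9 with an enrichment of at least 5. With only the nearest start counted, the named genes fell from 36 to 16 in WT and from 43 to 21 in DKO. The share of WT peaks with a counterpart was 100% in the better 50% of the list, and the DKO share was 32% with positions within 100 bp and 72% within 1000 bp. Within 100 bases of the peak, a shorter stretch by construction, the CpG median was 9 in WT and 10 in DKO, and AGATAA or TGATAA stood in 27.8% of WT and 12% of DKO windows. The WT share with a counterpart was 50% within 100 bp, and within 250 bp the shares were 61.1% in WT and 40% in DKO. In 2 alternatives chosen after seeing the data, counting overlapping windows once gave 16 WT and 22 DKO peaks and leaving out peaks nearer to another protein-coding start gave 17 and 24. With heights divided by the median of each list the DKO to WT ratio was 0.977.

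No paired analysis was possible because each condition has 1 library. With 1 library a condition, genotype, clone and library cannot be told apart, and leaving out a replicate was not possible. The lists do not give the depth of the libraries, which the study's methods put higher in DKO than in WT Flk1(+) cells, and a peak below the authors' limits is not listed. Clone, depth and height scaling were not tested.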

Other observations

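A few peaks lay in or near the clusters without naming a histone gene. Between the Hist2h genes, a WT peak 6350 bp from Hist2h3c1 was 9.18 high (ES 2.37) with 12 CpGs and no DKO counterpart. On chromosome 13 a DKO peak 6179 bp from Hist1h2ah was 5.55 high (ES 1.40) with 25 CpGs and no WT counterpart. These were the nearest peaks outside the 5 kb limit in their lists. The annotation runs Hist2h2bb over a longer stretch than the list did, and 1 WT peak (7.34, ES 2.13) and 2 DKO peaks (5.31, ES 1.68, and 6.27, ES 1.69) lay within that stretch unnamed for it.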
